A study of Mus musculus with 6 samples.

Results

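The genes described here are 10 genes of fatty acid synthesis and desaturation, chosen by gene symbol: Srebf1, Acly, Acaca, Fasn, Elovl6, Scd1, Scd2, Fads2, Elovl5 and Fads1. They are 10 of the 49315 gene rows of a mouse count table, and all 10 were among the 12274 genes with enough reads to be tested. The measurement was bulk RNA-seq of RAW264.7 cells, a macrophage-like mouse line transformed by a leukemia virus, labelled WT in genotype. Each of the 2 groups held 3 libraries, one treated for 24 h with 4 μg/mL of SKI-II and the other with DMSO. SKI-II is a compound best known for inhibiting sphingosine kinases, and DMSO is the solvent that served as the control. The labels do not say whether replicates were separate cultures, so p-values measure only the spread between these samples, which may be technical. The study's methods refer treatment and RNA extraction to its qPCR assay, described with 3 biological replicates per condition. They give no replicate number for the sequenced libraries.

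Mammalian cells build palmitate from cytosolic acetyl-CoA, lengthen it with elongases, and introduce double bonds with desaturases. The transcription factor SREBP-1, encoded by Srebf1, is held in the endoplasmic reticulum by SCAP and INSIG proteins, is cut in the Golgi by the site-1 and site-2 proteases, and then activates most of the enzyme genes of this route. In macrophages liver X receptors also raise Srebf1 transcription, and the unsaturated fatty acids that the route yields go into membrane phospholipids, stored triglyceride and cholesteryl ester.

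Of the 10 genes, 4 lie on chromosome 11 and 4 on chromosome 19 (GRCm38 coordinates of the GENCODE M21 annotation). On chromosome 19, Fads2 (10062765 to 10101746, minus strand) and Fads1 (10182888 to 10196877, plus strand) are separated by 81141 bases, and Scd2 (44293674 to 44306864, plus strand) and Scd1 (44394455 to 44407879, minus strand) by 87590 bases. The coding sequences of Scd1 and Scd2 are 1065 and 1074 bases long and were identical at 90.3% of aligned bases, so that part of their reads could have come from either gene. Only coding sequences were compared, out of 4892 exon bases in Scd1 and 5464 in Scd2, so the extent of this limit is not known. The longest coding run that Scd1 and Scd2 share is printed as an example of sequence that cannot be told apart. It is 147 bases long and lies in exons 4 and 5 of the 6 exons of each transcript. In Scd1 it covers chr19:44401693-44401805 and chr19:44400341-44400374 on the minus strand, and in Scd2 chr19:44299702-44299814 and chr19:44301212-44301245 on the plus strand.
Scd1 and Scd2 shared coding run: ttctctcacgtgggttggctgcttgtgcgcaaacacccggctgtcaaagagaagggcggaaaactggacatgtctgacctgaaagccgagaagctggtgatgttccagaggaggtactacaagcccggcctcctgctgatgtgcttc
The sources used here do not give how reads that match both genes were counted, and the split of reads between Scd1 and Scd2 is uncertain. The other related members were less alike: Fads1 and Fads2 were identical at 67% of aligned coding bases with a longest shared run of 17 bases, and Elovl5 and Elovl6 at 56.6% with a longest run of 10.

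Upstream sequence was taken from RefSeq (GRCm38.p6) for the 7 members with an entry, in 9 windows of 250 bases that end just before a transcript start (Srebf1 has 3 windows). The entries missing were Scd1, Scd2 and Fads1. The windows were searched on both strands for 4 short motifs: the core of the sterol regulatory element bound by SREBPs (TCACNCCAC), the E-box (CACGTG), the CCAAT box bound by NF-Y (CCAAT) and the GC box bound by Sp1 (GGGCGG). NF-Y and Sp1 are known partners of SREBPs at lipid gene promoters. Among all 32851 windows of that length, these letters occurred in 1.05%, 6.02%, 33.8% and 32.7%, respectively. In the 9 member windows they occurred in 0, 1, 4 and 4 windows, respectively. Printed here are the windows of Acly, Fasn and Elovl5, which were lower after SKI-II and hold matches, and that of Elovl6, the only member that was not called. Capitals mark every match to a motif on either strand.
Acly, chr11:100528001-100528250, minus strand: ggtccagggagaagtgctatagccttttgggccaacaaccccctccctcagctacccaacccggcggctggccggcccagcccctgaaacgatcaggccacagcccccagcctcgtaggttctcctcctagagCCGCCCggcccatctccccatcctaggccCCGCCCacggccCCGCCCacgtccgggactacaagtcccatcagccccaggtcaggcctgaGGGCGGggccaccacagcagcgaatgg
Fasn, chr11:120824548-120824797, minus strand: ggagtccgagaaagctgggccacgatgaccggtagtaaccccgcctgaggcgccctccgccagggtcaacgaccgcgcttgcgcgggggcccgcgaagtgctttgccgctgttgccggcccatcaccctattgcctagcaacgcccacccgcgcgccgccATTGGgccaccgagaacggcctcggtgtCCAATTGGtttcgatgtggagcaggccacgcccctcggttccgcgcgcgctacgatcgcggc
Elovl5, chr9:77917115-77917363, plus strand: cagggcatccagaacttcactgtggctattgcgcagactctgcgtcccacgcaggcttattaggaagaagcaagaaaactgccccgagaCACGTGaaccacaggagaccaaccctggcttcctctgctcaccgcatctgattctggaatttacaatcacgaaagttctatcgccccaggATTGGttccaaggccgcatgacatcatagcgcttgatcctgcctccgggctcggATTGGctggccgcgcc
Elovl6, chr3:129532136-129532354, plus strand: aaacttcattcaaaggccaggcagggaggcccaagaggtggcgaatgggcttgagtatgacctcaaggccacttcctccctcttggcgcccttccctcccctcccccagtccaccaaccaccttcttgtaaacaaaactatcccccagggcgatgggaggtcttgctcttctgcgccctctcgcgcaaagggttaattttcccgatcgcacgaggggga
The Acly window held 4 GC boxes and the Fasn window 3 matches to the CCAAT box. Positions counted back from the first transcribed base put the Fasn matches at -90 to -86, -62 to -58 and -59 to -55, the last 2 overlapping on opposite strands. The Elovl5 window held an E-box at -161 to -156 and 2 CCAAT boxes. The Elovl6 window held none of the 4 motifs and is printed only up to the first annotated transcript. The Acaca window (chr11:84195188-84195437, not printed) also held none of the 4 motifs, and Acaca was lower after SKI-II. That window lies inside the annotated gene, which starts at 84129672, and not upstream of its first transcript. In the windows searched, the presence of a match thus did not separate the genes that were lower from Elovl6. A match is a string of letters and not a bound site, and the absence of a match concerns these windows only.

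The libraries held 12495957 to 20050677 counted reads and 16890 to 18196 genes with a read. Reads of mitochondrial genes made up 1.07 to 1.25% of counts in DMSO and 1.38 to 1.71% in SKI-II. Macrophage genes were present in every library: over a list of 12 markers the summed level was 9067 to 13170 CPM (counts scaled to one common library total) in DMSO and 5865 to 8303 CPM in SKI-II. Without Lyz2, the most abundant marker, the sum was 3422 to 3784 CPM in DMSO and 4162 to 4483 CPM in SKI-II, higher instead of lower. Of the 12 markers 2 were higher (Fcgr1, log2 fold change 2.17, and Cd14, 1.41), 3 were lower (Lyz2, -1.26, Itgam, -0.93, and Adgre1, -0.92) and 7, among them Csf1r, Cd68 and Spi1, were not called. These counts stand beside 18.4% higher and 19.7% lower of all tested genes. The 15 markers of other cell types summed to 0.787 to 1.88 CPM in any library, none had enough reads to be tested and 6 had no read at all.

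The comparison of SKI-II with DMSO asks how this compound changes the transcriptome of the macrophages. Of the 10 genes, 9 were lower in SKI-II at an adjusted p below 0.05, 0 were higher and 1 (Elovl6) was not called, by the quasi-likelihood F test of edgeR with Benjamini-Hochberg adjustment over all 12274 tested genes. No member had a positive log2 fold change by edgeR, DESeq2 or limma-voom. Over all tested genes 19.7% were lower and 18.4% were higher. Of the members 5 fell by more than 1 on the log2 scale (Fasn, Scd1, Scd2, Elovl5 and Fads2), where 7.44% of all tested genes did so and 8.28% rose by that much. In all 10 genes every SKI-II library lay below every DMSO library, an order found in 25.5% of tested genes. The median log2 fold change of the members was -1.04, beside 0.00 for all tested genes. Reads of the 10 genes together made up 0.421 to 0.506% of all counts in the DMSO libraries and 0.165 to 0.191% in the SKI-II libraries.

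Genes of dividing cells moved in the same libraries. Of 16 such genes 15 were lower after SKI-II, beside 19.7% of all tested genes. Their median log2 fold change was -2.35, and their summed level was 2935 to 3709 CPM in DMSO and 764 to 930 CPM in SKI-II. Their part in the change of the lipid genes was not tested. In bulk samples, fewer cells of a kind and less RNA of a gene per cell cannot be told apart.

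**Figure D1:**
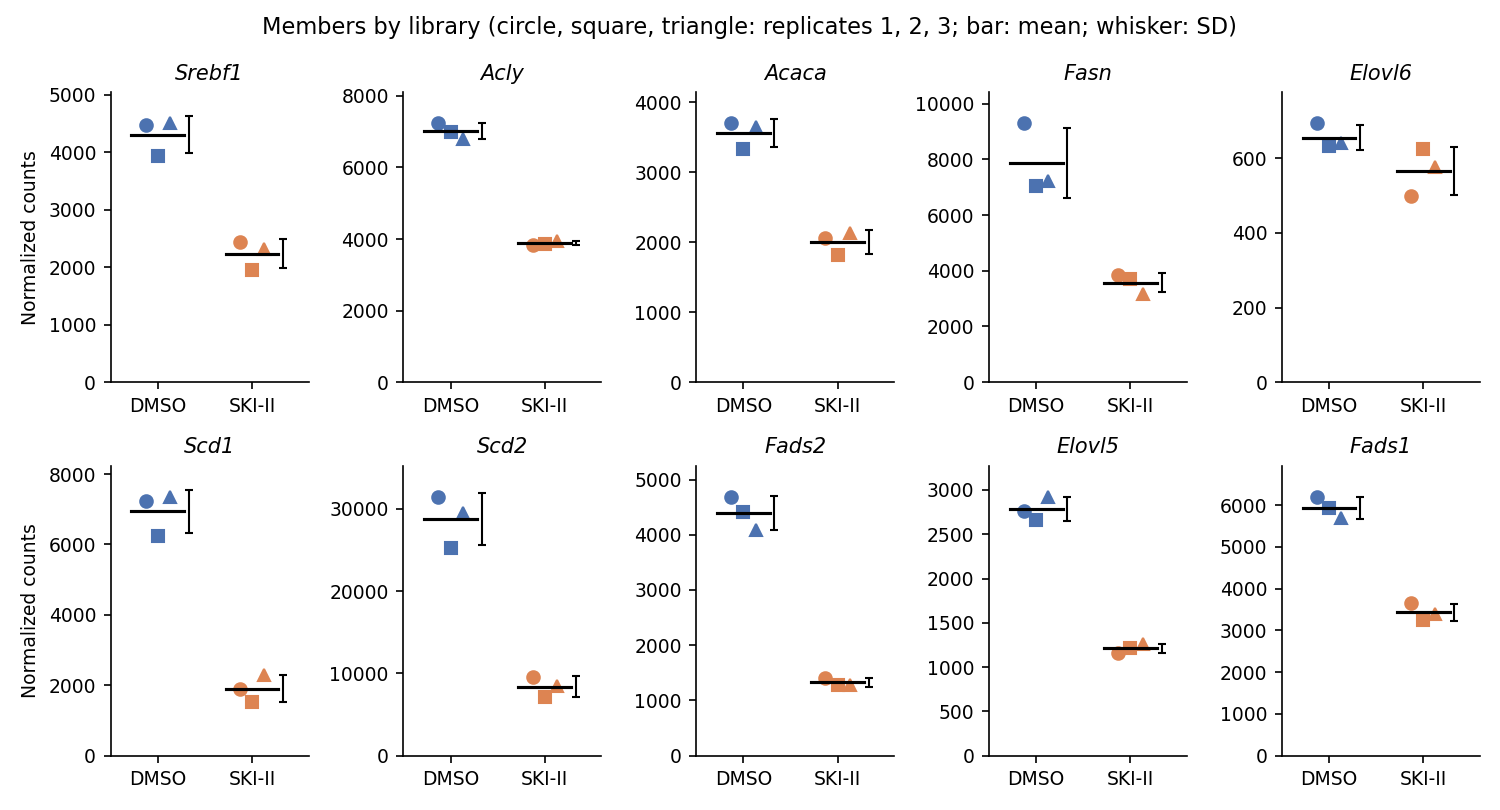
Normalized counts (vertical axis, from 0, with its own scale for each gene) of the 10 genes in the 3 DMSO and the 3 SKI-II libraries. Each symbol is 1 library, the horizontal bar is the group mean and the whisker is 1 SD. In all 10 panels the SKI-II symbols lie below the DMSO symbols, with the narrowest gap for Elovl6.

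Srebf1 encodes SREBP-1, which drives the enzyme genes of the pathway (chromosome 11, 60199089 to 60222581, minus strand). Its normalized counts (reads scaled to a common library size) were 4473, 3926 and 4504 in DMSO replicates 1 to 3 and 2433, 1953 and 2312 in SKI-II replicates 1 to 3. The lowest DMSO library thus lay well above the highest SKI-II library. Srebf1 fell by 0.95 on the log2 scale (SE 0.13, 95% interval -1.23 to -0.66, edgeR adjusted p = 0.000418), to 51.9% of the DMSO level. The gene shares 109 exon bases with Rai1 on the opposite strand, which had at most 888 reads in a library. Counts per gene do not separate the SREBP-1a and SREBP-1c transcripts, which start at different promoters.

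Acly, Acaca and Fasn lead from citrate to palmitate. ATP citrate lyase (Acly, chromosome 11, 100476353 to 100528000, minus strand) makes cytosolic acetyl-CoA from citrate. Its normalized counts were 7239, 7002 and 6790 in DMSO and 3839, 3853 and 3945 in SKI-II. The replicates were close together in both groups, with means of 7010 ± 225 and 3879 ± 57.5 (SD, n = 3), and Acly fell by 0.85 on the log2 scale (SE 0.11, edgeR adjusted p = 0.000363). Acetyl-CoA carboxylase 1 (Acaca, chromosome 11, 84129672 to 84401651, plus strand) makes malonyl-CoA, the committed step. Its normalized counts were 3702, 3333 and 3646 in DMSO and 2060, 1812 and 2130 in SKI-II. The groups were again apart, and Acaca fell by 0.83 (SE 0.12, edgeR adjusted p = 0.000522).

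Fatty acid synthase (Fasn, chromosome 11, 120805846 to 120824547, minus strand) joins malonyl units into palmitate, and its upstream window is the one with 3 CCAAT matches. Its normalized counts were 9307, 7045 and 7231 in DMSO and 3847, 3712 and 3175 in SKI-II. DMSO replicate 1 lay above the other control libraries, and the lowest control was still above all SKI-II libraries. Fasn fell by 1.14 on the log2 scale (SE 0.15, 95% interval -1.47 to -0.80, edgeR adjusted p = 0.000362), to 45.5% of the DMSO level. Without DMSO replicate 1 it fell by 1.01.

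Elovl6 lengthens palmitate to stearate (chromosome 3, 129532355 to 129638495, plus strand) and was the only member that did not pass the test. Its normalized counts were 694, 632 and 640 in DMSO and 498, 624 and 576 in SKI-II. The groups did not overlap, but the highest SKI-II library was close to the lowest DMSO library. The mean was 655 ± 34.2 in DMSO and 566 ± 63.7 in SKI-II (SD, n = 3), a log2 fold change of -0.21 (SE 0.13, 95% interval -0.51 to 0.09, edgeR adjusted p = 0.248). The interval of its level runs from 70.1 to 106% of the DMSO level, so a moderate decrease is within it.

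The stearoyl-CoA desaturases Scd1 and Scd2 place the first double bond into stearate and palmitate and yield oleate and palmitoleate. Normalized counts of Scd1 were 7226, 6229 and 7360 in DMSO and 1897, 1532 and 2293 in SKI-II. Normalized counts of Scd2 were 31470, 25232 and 29513 in DMSO and 9608, 7131 and 8438 in SKI-II. In both genes the highest SKI-II library held well under the lowest DMSO library. Scd1 fell by 1.86 on the log2 scale (SE 0.16, 95% interval -2.22 to -1.51, edgeR adjusted p = 3.47e-05), to 27.5% of the DMSO level. Scd2 fell by 1.78 (SE 0.16, 95% interval -2.14 to -1.41, edgeR adjusted p = 5.16e-05), to 29.2% of the DMSO level. Because the genes share the coding run printed earlier, their separate values are uncertain. Scd3, another gene of the family, had 5 to 17 reads per library and was not tested.

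Fads2, Elovl5 and Fads1 act in turn on linoleate and alpha-linolenate to make arachidonate and other highly unsaturated fatty acids. Fads2, the delta-6 desaturase that starts the series, had normalized counts of 4691, 4420 and 4078 in DMSO and 1414, 1282 and 1282 in SKI-II. Its replicates were tight in both groups, and it had the smallest adjusted p among the members. Fads2 fell by 1.73 on the log2 scale (SE 0.11, 95% interval -1.98 to -1.47, edgeR adjusted p = 1.13e-05), to 30.2% of the DMSO level. Elovl5 (chromosome 9, 77917364 to 77984519, plus strand) lengthens the polyunsaturated chains. Its normalized counts were 2765, 2657 and 2925 in DMSO and 1154, 1219 and 1256 in SKI-II. It fell by 1.20 (SE 0.11, 95% interval -1.44 to -0.96, edgeR adjusted p = 4.42e-05), to 43.5% of the DMSO level. Fads1, the delta-5 desaturase of the last step, had normalized counts of 6202, 5939 and 5678 in DMSO and 3651, 3256 and 3384 in SKI-II. The groups were apart here too, and Fads1 fell by 0.79 (SE 0.12, 95% interval -1.05 to -0.53, edgeR adjusted p = 0.000661), to 57.8% of the DMSO level.

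**Figure D2:**
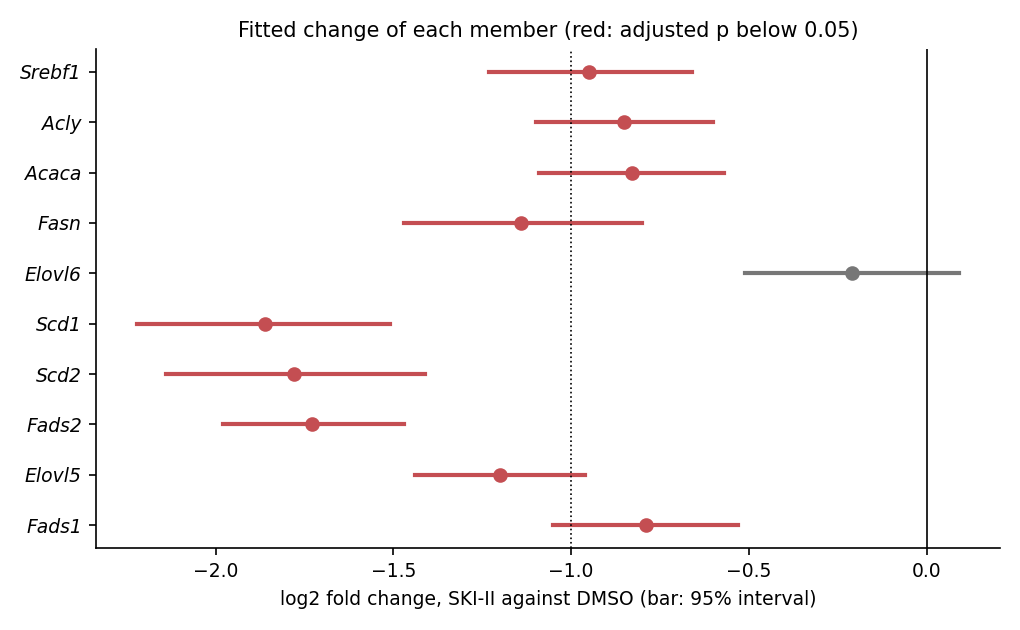
Fitted log2 fold change of SKI-II against DMSO (horizontal axis) for each of the 10 genes, with its 95% interval as a bar. Red marks an adjusted p below 0.05 and grey the gene that did not pass, and the dotted line stands at -1. The intervals of Scd1, Scd2 and Fads2 end below -1 (upper ends -1.51, -1.41 and -1.47), and that of Elovl6 crosses 0.

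Fitted changes thus ran from -1.86 (Scd1) to -0.21 (Elovl6). The intervals of Scd1, Scd2 and Fads2 lay wholly below -1 on the log2 scale. Those of Elovl5, Fasn, Srebf1, Acly, Acaca and Fads1 all included -1. Only 4 differences between genes were tested, 3 between members and 1 between Srebf1 and Srebf2, which is not a member, each as a ratio of counts per kilobase of exon inside a library, which does not depend on scaling between libraries. With 3 libraries against 3 an exact two-sided permutation test cannot give a p below 0.1.

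The ratio of Fads1 to Fads2 compares the last desaturase of the polyunsaturated series with the first. It was 0.905, 0.92 and 0.953 in DMSO and 1.77, 1.74 and 1.81 in SKI-II. The ratio was thus higher in every SKI-II library, by 1.91-fold, Fads2 having the larger decrease (exact permutation p = 0.1, the smallest possible, and 0.133 after Benjamini-Hochberg adjustment over the 4 ratios). The ratio of the polyunsaturated elongase Elovl5 to Elovl6 was 7.27, 7.68 and 8.35 in DMSO and 4.23, 3.57 and 3.98 in SKI-II. It was lower in every SKI-II library, at 0.505 of the DMSO value (exact permutation p = 0.1, adjusted 0.133).

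Scd1 to Scd2 is the ratio that the shared coding run touches. It was 0.256, 0.276 and 0.279 in DMSO and 0.22, 0.24 and 0.304 in SKI-II. These ranges overlapped, with means of 0.27 ± 0.012 and 0.255 ± 0.0434 (SD, n = 3) and an exact permutation p = 0.6 (adjusted 0.6). The log2 difference of -0.10 rested on single libraries: it was -0.23 without SKI-II replicate 3 and 0.00 without SKI-II replicate 1. The ratio of Srebf1 to Srebf2, the gene of the sterol-directed factor SREBP-2, was 0.604, 0.472 and 0.499 in DMSO and 0.727, 0.696 and 0.677 in SKI-II. It was higher in every SKI-II library, by 1.34-fold, Srebf2 having the larger decrease (exact permutation p = 0.1, adjusted 0.133).

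**Figure D3:**
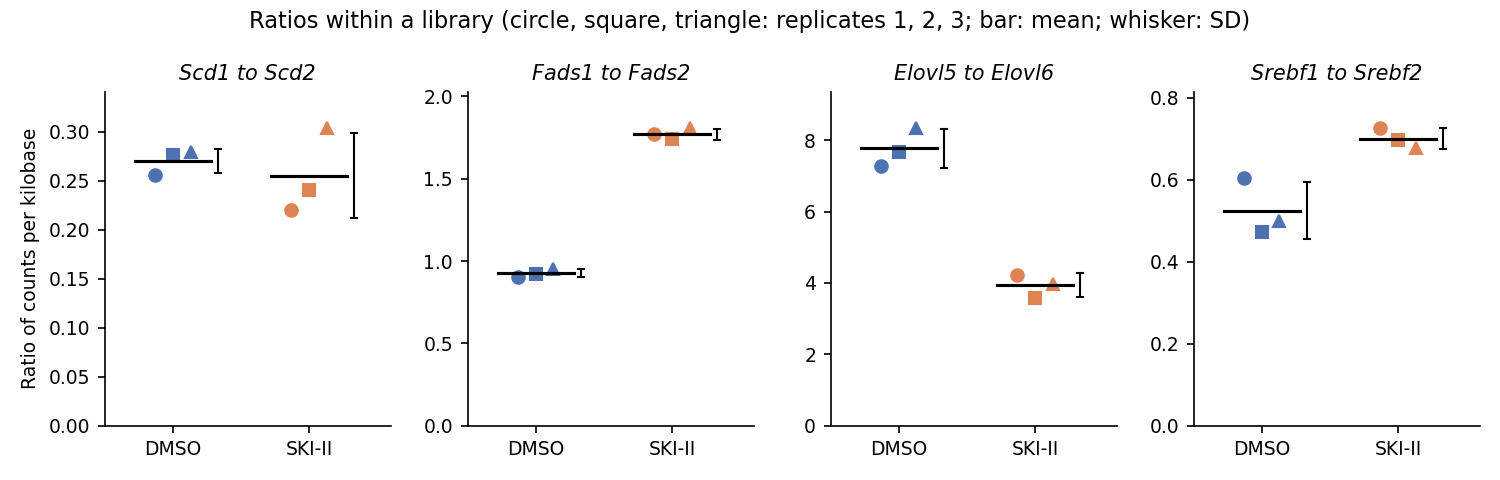
Ratios of counts per kilobase between pairs of genes in the same library (vertical axis, from 0, own scale in each panel), for the 3 DMSO and 3 SKI-II libraries. Symbols are libraries, horizontal bars are means and whiskers are 1 SD. The Fads1 to Fads2 ratio sits at 0.905 to 0.953 in DMSO and at 1.74 to 1.81 in SKI-II, whereas the Scd1 to Scd2 ratios overlap.

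Levels can be compared between genes only per length, here as CPM per kilobase of annotated exon. In DMSO, Scd2 stood first at a level of 328 CPM per kilobase (288 to 359 over the libraries). Scd1 (88.4), Fads2 (83.2), Acly (82.8) and Fads1 (76.9) followed at levels whose ranges each overlapped that of the next. Elovl5 (49.2), Srebf1 (47.6) and Fasn (44.8) formed a lower set with overlapping ranges. Acaca (13) and Elovl6 (6.35) had the lowest levels in CPM per kilobase, apart from the others and from each other.

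The order of these levels differed after SKI-II. Scd2 was still first at 95.7 CPM per kilobase (81.3 to 110). Acly (45.8) and Fads1 (44.4) came next with overlapping ranges, so that the delta-5 desaturase stood above Scd1 and Fads2 in every SKI-II library. The levels of Fads2 (25.1), Srebf1 (24.7), Scd1 (24.3), Elovl5 (21.4) and Fasn (20.4) lay in a chain of overlapping ranges. Acaca (7.3) and Elovl6 (5.49) were again lowest in CPM per kilobase. Of all counts of the 10 genes, Scd2 took 38 to 40.8% in DMSO and 27 to 31.6% in SKI-II.

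In a list of 34 other genes of fatty acid synthesis, elongation and desaturation, most of those tested were not called. Of the 27 tested, 4 were higher, 8 were lower and 15 were not called, beside 18.4% higher and 19.7% lower of all tested genes, with a median log2 fold change of -0.25. Of the 7 others, 6 had no read in any library, which allows up to 3 reads in each by counting error. Among those called, Hacd4, a dehydratase of chain elongation, decreased most (683 ± 111 to 164 ± 41.3 normalized counts, SD, n = 3, log2 fold change -2.06, edgeR adjusted p = 7.29e-05). Acss2, which makes cytosolic acetyl-CoA from acetate, went from 1240 ± 191 to 453 ± 35.6 (log2 fold change -1.45, edgeR adjusted p = 7.78e-05). Slc25a1, the mitochondrial citrate carrier that supplies Acly, went from 1909 ± 224 to 993 ± 148 (-0.94, edgeR adjusted p = 0.000957).

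The genes of this list called higher were Me1, Cyb5a, Acacb and Hacd3. Me1, the cytosolic malic enzyme that supplies NADPH, rose from 759 ± 13.9 to 1687 ± 308 normalized counts (log2 fold change 1.15, edgeR adjusted p = 0.000312). It is also a known target of the antioxidant factor Nrf2. Cyb5a, the cytochrome b5 that passes electrons to desaturases, rose from 1357 ± 177 to 2548 ± 487 (0.91, edgeR adjusted p = 0.00181). Acacb, the carboxylase of the mitochondrial surface that restrains fatty acid oxidation, rose from 146 ± 30.8 to 259 ± 65.6 (0.83, edgeR adjusted p = 0.0217). Acacb thus changed in the direction opposite to its paralog Acaca. The last was Hacd3, a dehydratase of the same elongation step as Hacd4, with 716 ± 113 and 964 ± 74.6 normalized counts (0.43, edgeR adjusted p = 0.0409). Its call was lost when libraries were scaled by library size alone (edgeR adjusted p = 0.0725).

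Most tested genes in a list of 31 that control SREBP-1 and its targets were not called. Of the 29 tested, 7 were higher, 7 were lower and 15 were not called, near the 18.4% higher and 19.7% lower of all tested genes, with a median log2 fold change of 0.04. Normalized counts of Srebf2 were 9441, 10615 and 11515 in DMSO and, without overlap, 4265, 3580 and 4352 in SKI-II. It fell by 1.37 on the log2 scale (SE 0.14, edgeR adjusted p = 8.14e-05). Insig1, which retains SREBPs in the endoplasmic reticulum and is itself a target of SREBPs, went from 1230 ± 136 to 323 ± 68.1 (log2 fold change -1.93, edgeR adjusted p = 3.77e-05). Its paralog Insig2 did not pass the test (439 ± 81.6 and 523 ± 8.83, adjusted p = 0.237 by edgeR).

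Scap, the escort protein of SREBPs, had 1383 ± 59.9 and 1427 ± 108 normalized counts and was not called (edgeR adjusted p = 0.793). Mbtps1, the site-1 protease, went from 2040 ± 89.4 to 1605 ± 157 (log2 fold change -0.35, edgeR adjusted p = 0.0421), a call lost with DESeq2 (adjusted p = 0.052) and with library size alone (edgeR adjusted p = 0.0538). Mbtps2, the site-2 protease, was not called (0.15, edgeR adjusted p = 0.393). Of the liver X receptors, Nr1h3 rose from 54.8 ± 11.5 to 131 ± 36.6 (1.25, edgeR adjusted p = 0.00786), and the more abundant Nr1h2 did not pass (1211 ± 89.5 and 1538 ± 161, edgeR adjusted p = 0.0548), although it did with library size alone (edgeR adjusted p = 0.0461). Other called genes of this list are named after their values were seen. Higher were Trib1 (log2 fold change 1.33), Ubxn8 (1.31), Erlin1 (0.91), Fbxw7 (0.56) and Mlx (0.49). Lower were Lpin1 (log2 fold change -1.85), Sp1 (-0.73), Usf2 (-0.67) and Nfya (-0.46). Sp1 and NF-Y are the partners of SREBPs named above for the GC and CCAAT boxes. Nfya encodes a subunit of NF-Y. The subunit genes Nfyb (log2 fold change 0.02, edgeR adjusted p = 0.943) and Nfyc (0.25, edgeR adjusted p = 0.33) were not called. Mlxipl, which encodes the carbohydrate-sensing factor ChREBP, had no read in any library, which again allows up to 3 reads in each.

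Target genes of SREBP-2, nearly all of sterol synthesis, were mostly lower. Of 23 listed genes 22 were tested, 0 were higher (also 0 at an unadjusted p below 0.05 and 0 by DESeq2 or limma-voom), 20 were lower and 17 of those fell by more than 1 on the log2 scale. Of all tested genes 18.4% were higher, 19.7% were lower and 7.44% fell by more than 1. The median log2 fold change of the sterol list was -1.33. Acat2, which joins acetyl-CoA units at the start of the route, was the lowest (log2 fold change -2.50, edgeR adjusted p = 8.58e-06), followed by Mvd (-2.13, edgeR adjusted p = 1.28e-05) and Idi1 (-2.02, edgeR adjusted p = 4.11e-05), which make the isoprene units. Small decreases among the called genes were those of Sqle (-0.37) and Fdft1 (-0.76).

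**Figure D4:**
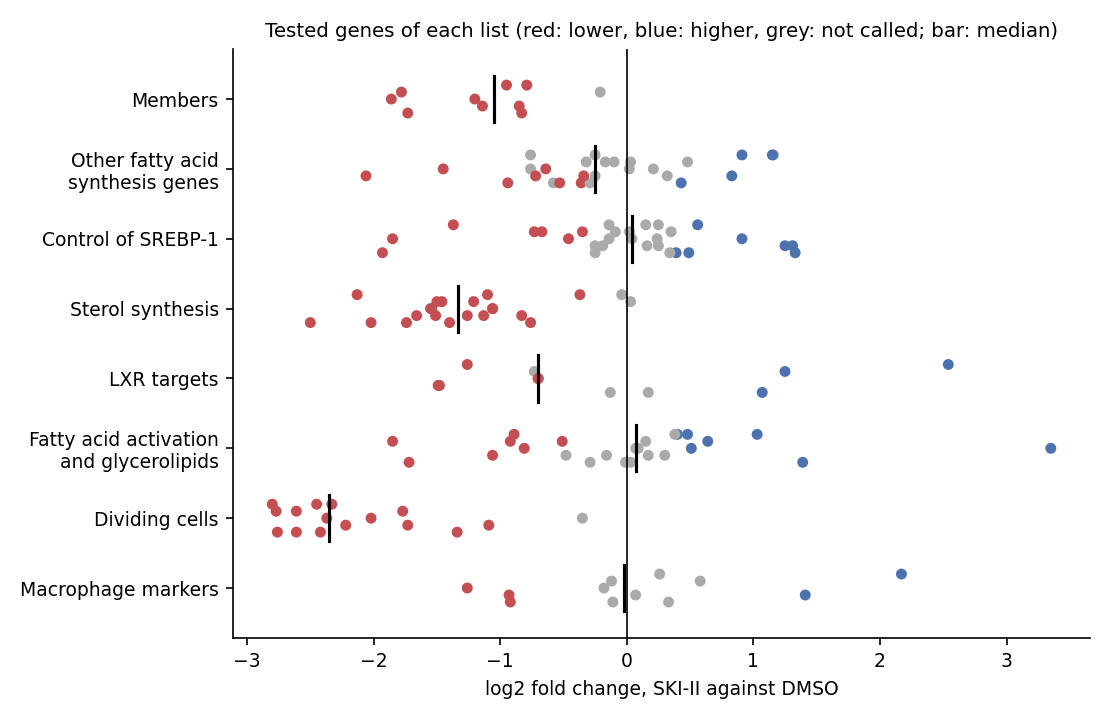
Fitted log2 fold changes of SKI-II against DMSO (horizontal axis) of the tested genes in each list (rows), 1 point a gene, with the list's median as a black bar. Red is lower, blue is higher and grey not called at an adjusted p of 0.05. All points of the 10 genes (median -1.04) and of the genes of dividing cells (-2.35) lie to the left of 0. Those of sterol synthesis (-1.33) do so except for Sc5d at 0.03, and the other lists spread to both sides.

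For 3 members the genes with the most similar pattern were listed. Likeness was the root mean square difference of centred log2 CPM over the 6 libraries, among 9586 genes with at least 100 mean normalized counts. Closest to Srebf1 were Anapc15 (0.058), Sema4d (0.062) and Tacc1 (0.073). Closest to Fasn were Kank2 (0.079) and Tuba1b (0.086), and closest to Scd1 were Mov10 (0.088), Mastl (0.106) and Nt5dc2 (0.131). None of these genes is a member.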

How the data were processed

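RNA-seq libraries of RAW264.7 cells, 3 treated with DMSO and 3 with SKI-II, were grouped by their sample titles; treatment dose and time come from the study's methods. The authors deposited a table of raw counts of reads per gene in each library. The submitters' processing notes name Trimmomatic 0.36, STAR 2.5.2b, featureCounts of Subread 1.5.2 and DESeq2. The sources used here do not give the genome build, the annotation or the handling of strand and of reads with several matches. A mouse GENCODE M21 annotation named 49056 of 49315 rows, and unnamed rows held 0.0102% of counts.

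Genes were kept by filterByExpr of edgeR 4.0.16 in R 4.3.3 (minimum count 10, total 15), which left 12274 genes and at least 99.9% of counts. Libraries were scaled by TMM (factors 0.941 to 1.05), and normalized counts were CPM times the mean effective library size of 16042438. The quasi-likelihood F test compared the groups without a block, with Benjamini-Hochberg adjustment over all tested genes and an adjusted p below 0.05 as the threshold. The common coefficient of variation between replicates was 17.5%. The code was tested on simulated data. Alternatives were DESeq2 1.42.0, voom of limma 3.58.1, RLE scaling, library size alone, no filter, at least 10 counts in every library, leaving out each library, and the replicate number as a block. Within-library ratios were compared by exact permutation. Exon lengths are the union of GENCODE exons. Depth was 12495957 to 20050677 counts per library, and counting error alone is below the spread between replicates: within a group, pairs of libraries differed by a chi-square of 15.4 to 58.1 per degree of freedom.

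The 10 members and all lists were chosen with earlier results of these data known. Values are given for all members, for 9 named genes of SREBP control, for the 3 highest and the 3 lowest log2 fold changes among the called genes of each other pathway list, and for the 3 nearest patterns of Srebf1, Fasn and Scd1. Some genes that this rule names are not reported here. Markers, Scd3, Hacd3, Nfyb and Nfyc were named, and the marker sum without Lyz2 was added, after their values were seen.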

Additional observations from a re-analysis of the deposited data

How the results depend on the processing

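All 10 genes kept their direction and their side of the threshold in all 13 alternative fits (130 values). The number lower stayed at 9, and the number beyond 1 on the log2 scale ran from 5 to 6, with Srebf1 at -1.02 in the fits that lacked DMSO replicate 2 or lacked SKI-II replicate 1. The median of the members ran from -1.12 (without DMSO replicate 2) to -0.97 (without DMSO replicate 1). Fitted changes of Scd1 ran from -2.02 to -1.72, of Scd2 from -1.89 to -1.67, of Fads2 from -1.78 to -1.70, of Fasn from -1.22 to -1.01 and of Elovl6 from -0.28 to -0.13 (adjusted p 0.217 to 0.493 over edgeR, DESeq2 and limma). No scaling moved the median of all genes by more than 0.01. DESeq2 called 2366 genes higher and 2440 lower of 15432, where edgeR called 2255 and 2413 of 12274.

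Whether the replicate numbers of the labels pair the libraries cannot be told from 3 libraries in each group. Deviations from the group mean correlated at 0.246, 0.00994 and 0.458 between libraries numbered 1, 2 and 3. DMSO replicate 1 correlated best with SKI-II replicate 2 (0.296). With the replicate number as a block, 9 members were again lower (median -1.04; Fads2 -1.73, edgeR adjusted p = 1.6e-05; Elovl6 -0.22, edgeR adjusted p = 0.218), and over all genes 2765 were higher and 2819 lower. Nr1h2 passed under the block (edgeR adjusted p = 0.0441). The ratio differences with the block were -0.10, 0.94, -0.99 and 0.42 on the log2 scale for Scd1 to Scd2, Fads1 to Fads2, Elovl5 to Elovl6 and Srebf1 to Srebf2. An exact sign-flip test within pairs cannot go below 0.25 with 3 pairs. Over DESeq2, limma-voom, library size alone and the block, the other fatty acid genes gave 3 to 5 higher and 7 to 9 lower, SREBP control 7 to 9 and 6 to 7, fatty acid activation 7 to 8 of each, and the sterol and liver X receptor lists kept their counts. With 1 library left out, the Scd1 to Scd2 difference ran from -0.23 (exact permutation p = 0.1) to 0.00. Depth did not limit the members, whose lowest count was 445 reads (Elovl6), but the shared sequence of Scd1 and Scd2 limits the split of their reads.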

Other observations

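Genes that carry fatty acids into stored lipid were called in both directions. Of 28 listed genes of fatty acid activation and glycerolipid synthesis 25 were tested, 7 were higher, 7 were lower and 11 were not called, beside 18.4% higher and 19.7% lower of all tested genes, with a median log2 fold change of 0.07. Gpat3, which starts triglyceride synthesis at the endoplasmic reticulum, had normalized counts of 66, 55.6 and 77.2 in the DMSO libraries and of 952, 581 and 507 in the SKI-II libraries. It rose in all 3 SKI-II libraries, by 3.35 on the log2 scale (SE 0.26, edgeR adjusted p = 2.1e-05). Lpin3, a phosphatidate phosphatase, rose from 93.5 to 245 mean normalized counts (1.39, edgeR adjusted p = 0.00352). Slc27a4, a fatty acid transport protein, rose from 443 ± 124 to 909 ± 330 (SD, n = 3, log2 fold change 1.03, edgeR adjusted p = 0.0162), although 1 SKI-II library lay within the DMSO range. Lpin1, another phosphatase of this kind, had normalized counts of 647, 1017 and 1369 in the DMSO libraries and of 309, 124 and 407 in the SKI-II libraries, a wide spread in both groups (-1.85, edgeR adjusted p = 0.00454). Dgat2, an acyltransferase of triglyceride synthesis, was scarce, at 18.9 and 5.56 mean normalized counts (-1.72, edgeR adjusted p = 0.0141). Acsl3, an acyl-CoA synthetase of lipid droplets, went from 1734 to 830 (-1.06, edgeR adjusted p = 0.000618).

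Of 11 liver X receptor targets of macrophages, 3 were higher, 5 were lower and 3 were not called, beside the same shares of all tested genes, with a median log2 fold change of -0.70. Plin2, the coat protein of lipid droplets, had normalized counts of 2410, 2135 and 2325 in the DMSO libraries and of 17480, 12127 and 10380 in the SKI-II libraries. It rose by 2.54 on the log2 scale (SE 0.19, edgeR adjusted p = 1.8e-05) in the libraries where 9 of the 10 synthesis genes were lower. Nr1h3 itself (1.25) and Smpdl3a, a phosphodiesterase (1.07, edgeR adjusted p = 0.00547), also rose. Abca2, a lipid transporter (-1.49, edgeR adjusted p = 0.000159), Lpl, the lipoprotein lipase (-1.48, edgeR adjusted p = 0.00156), and Cd5l, a secreted macrophage protein (-1.26, edgeR adjusted p = 0.0156), were lower. DMSO replicate 1 was the highest library for both Lpl (34676, beside 20120 and 17049) and Cd5l (668, beside 241 and 310).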
